A study of Sus scrofa with 81 samples.

Results

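Muscle RNA at D120 was compared with the stages on either side of it, D100 and D140, in pigs of the strain labelled Landrance. The comparison held 9 of the 81 libraries of the series, 3 from each of these stages, chosen by the stage in their labels and by nothing measured in them. All 3 groups are skeletal muscle of the same strain with no treatment labelled, and they differ in the labels by age alone, read as days after birth, and the whole series covered 27 stages with 3 libraries each. No source used here gives the muscle, the sex, the litter, feeding or the hour of sampling, or says that the 3 libraries of D120 were from different animals. The p-values therefore measure the spread between libraries of a stage, and that spread may be technical. It was estimated for each gene over all 27 stages, the fetal ones included, and may differ from the spread at D120.

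Levels are FPKM, the fragments assigned to a gene, scaled to its transcript length and to the total of the library. A change is the log2 difference between the D120 mean and the average of the D100 and D140 means, taken on log2(FPKM + 1), which understates the change of low genes. A gene was called where limma's Benjamini-Hochberg adjusted p was below 0.05 and the log2 fold change was 1 or more in size. Only genes so called are said to have risen or fallen. The muscle label held in all 9 libraries: CKM, the creatine kinase of muscle, lay between 4384 and 8773 FPKM, and the 16 genes of the fast-fibre contractile list summed to between 69170 and 101300 FPKM.

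The libraries of D120 did not form a tight group. Replicate 3 of D120 correlated with replicate 2 of its stage at r = 0.979 and with replicate 3 of D100 at r = 0.978, across genes. Replicate 2 of D140 lay nearest to replicate 1 of D120, at r = 0.985, and not to a library of its own stage. The median ratio of a library to the common reference was 0.579, 0.586 and 0.713 at D120 and 0.664 to 0.776 in the other 6 libraries (exact permutation test, two-sided, p = 0.0476, smallest possible 0.0238). With a reference made from the 9 libraries alone it was 0.885 to 1.02 at D120 and 0.955 to 1.10 in the others (exact permutation p = 0.0714). Genes at 1 FPKM or more numbered 9520, 9587 and 10326 at D120 and 9947 to 10633 in the others (exact permutation p = 0.0476). In the common-reference ratio and the number of genes, replicates 1 and 2 of D120 were below all other libraries and replicate 3 was not. The 10 most abundant genes held 30.6% to 32.2% of the summed FPKM at D120 and 26.1% to 32.2% in the others, with D140 replicate 2 at the upper end (exact permutation p = 0.0714). The depth estimated from the steps of low values was 19.1 to 23.4 M fragments over the 9 libraries, with no difference called between D120 and the others (exact permutation p = 0.833).

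**Figure D1:**
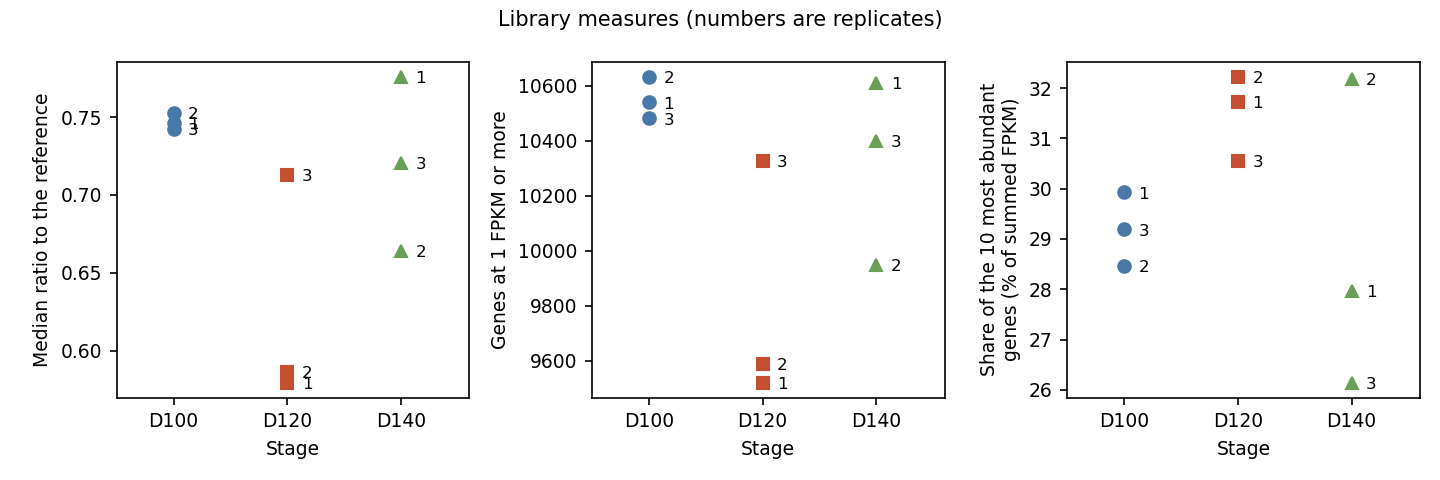
Median ratio to the reference (left), number of genes at 1 FPKM or more (middle) and share of the 10 most abundant genes in percent of summed FPKM (right) for each library of D100, D120 and D140, with the replicate number beside each point. D120 replicates 1 and 2 are the lowest in the left and middle plots, at 0.579 and 0.586 and at 9520 and 9587 genes, while D120 replicate 3 lies among the other stages.

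Of 14220 genes tested, 42 rose at D120 (0.295%) and 55 fell (0.387%). With the spread taken from the 9 libraries alone, 9 were called higher and 11 lower. The median gene was lower at D120 by this scale: the median log2 fold change was -0.12, and 74.4% of genes were below 0. When each library was divided by its median ratio the median became 0, and the calls turned from mostly lower to mostly higher, with 89 genes higher (0.626%) and 33 lower (0.232%). The 42 genes higher in the deposited values were called under both scalings, and 30 of the 55 lower ones were. The D120 mean was the lowest of all 27 stages for 2933 genes (20.6%) and the highest for 178 (1.25%). All 3 D120 libraries lay above all 6 others for 203 genes (1.43%) and below them for 1165 (8.19%). Among the genes called, 22 of the 42 that rose had their highest mean of the 27 stages at D120, and 11 of the 55 that fell had their lowest mean there (beside 20.6% of all genes). Calling selects on the D120 mean, so these ranks are no further support. Without D120 replicate 3 and D140 replicate 2, 56 genes were called higher (0.394%) and 209 lower (1.47%), so the number of falls rests on these libraries. Both were picked after the data were seen, for standing apart from their stage. Counts without them, here and below, are therefore no independent support.

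Against D100 alone, 55 genes were higher at D120 (0.387%) and 187 lower (1.32%). Against D140 alone, 44 were higher (0.309%) and 64 lower (0.45%). These comparisons share the D120 libraries. Between the neighbours, 33 genes were higher (0.232%) and 124 lower (0.872%) at D140 than at D100. Called in the joint comparison and against each neighbour on its own were 28 genes higher (0.197%) and 21 lower (0.148%).

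Heat shock proteins are chaperones that hold or refold damaged proteins. The heat shock transcription factor HSF1 induces many of them by binding repeats of GAA and TTC in their promoters, and muscle uses several small heat shock proteins and the co-chaperone BAG3 to maintain its contractile filaments. At D120 members of the HSP70, HSP110, DNAJ and small heat shock families rose. The constitutive HSPA8 and the chaperone HSP90AA1 were higher by adjusted p but under the fold threshold, at 0.58 ± 0.17 (adjusted p = 0.0185) and 0.61 ± 0.15 (adjusted p = 0.0045), and HSF1 itself was at 0.14 ± 0.16 (adjusted p = 0.598). Of 26 heat shock genes tested, 9 rose and 1 fell, beside 0.295% and 0.387% of all genes, and the median log2 fold change of the list was 0.51 against -0.12 for all genes. With median-ratio scaling 10 rose, CHORDC1, a co-chaperone of HSP90, being the further one at 1.03, and 1 fell, and the median was 0.74 against 0. By adjusted p alone 15 of 26 were higher, beside 2.41% of all genes, and in 6 all D120 libraries lay above all others, beside 1.43%. The list also had 9 higher and 1 lower without D120 replicate 3 and D140 replicate 2. With the spread taken from the 9 libraries alone, only 9 of all genes tested were called higher, HSPB8 among them. Calls within the list were not counted in that fit.

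The largest rise of the comparison was that of HSPA6, a strictly inducible HSP70 chaperone in humans, which was not among the 26. Its level was 6.14, 3.66 and 5.54 FPKM at D100, 166, 555 and 43.1 FPKM at D120 and 4.59, 27.0 and 1.89 FPKM at D140. All D120 libraries were above all others, and they differed widely among themselves, with replicate 2 highest and replicate 3 lowest. The log2 fold change was 4.56 ± 0.52 (SE; adjusted p = 5.4e-09), and 4.86 with median-ratio scaling. The D120 mean of 255 ± 267 FPKM (SD, n = 3) was the highest of the 27 stages, the next being D160 with 16.4 ± 9.64 FPKM. In a fit of the 9 libraries alone the adjusted p of HSPA6 was 0.0661.

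HSP70.2, an inducible HSP70 gene with near-identical copies between which reads may be split, had 87.6, 94.6 and 85.6 FPKM at D100, 392, 774 and 228 FPKM at D120 and 121, 239 and 87.4 FPKM at D140. D120 replicate 3 lay just below D140 replicate 2, so the groups overlapped there (log2 fold change 1.89 ± 0.49, adjusted p = 0.0074). HSPH1, a nucleotide exchange factor of HSP70, had 6.25, 6.70 and 6.86 FPKM at D100, 21.0, 92.4 and 48.1 FPKM at D120 and 15.3, 15.6 and 23.4 FPKM at D140. D120 and D100 were apart and D120 replicate 1 lay within D140 (1.96 ± 0.33, adjusted p = 5.8e-05).

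Among the DNAJ co-chaperones, which hand clients to HSP70, DNAJB1 had 28.0, 24.8 and 14.4 FPKM at D100, 83.7, 247 and 26.6 FPKM at D120 and 24.0, 46.7 and 16.6 FPKM at D140. Replicates 1 and 2 of D120 were above all others and replicate 3 was within them (1.74 ± 0.34, adjusted p = 3.5e-04). DNAJA1 rose from 19.0 to 23.9 FPKM at D100 and 34.0 to 42.3 FPKM at D140 to 45.7, 94.5 and 77.0 FPKM at D120, above every other library (1.27 ± 0.24, adjusted p = 3.1e-04). DNAJB4 rose by 1.28 ± 0.32 (adjusted p = 0.0044), with D120 replicate 3 inside the range of the others.

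BAG3, which links HSP70 to the small heat shock proteins and to autophagy of damaged filaments, had 2.38, 3.73 and 2.04 FPKM at D100, 9.92, 26.2 and 8.32 FPKM at D120 and 4.68, 4.91 and 7.96 FPKM at D140. Every D120 library was above the others, replicate 3 by a narrow margin over D140 replicate 3 (1.51 ± 0.22, adjusted p = 3.2e-06). Its partner HSPB8, a small heat shock protein, had 265, 424 and 299.9 FPKM at D120 and 122 to 164 FPKM in the other 6 libraries, without overlap (1.2 ± 0.22, adjusted p = 1.7e-04). HSPB8 was called in the fit of the 9 libraries alone as well.

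CRYAB, the small heat shock protein that binds desmin and titin, rose by 1.53 ± 0.33 (adjusted p = 0.0015), with 188, 442 and 258 FPKM at D120 and 49.0 to 152 FPKM in the others. HSPB1 rose by 1.46 ± 0.32 (adjusted p = 0.0018), with 207, 507 and 288 FPKM at D120 and 67.5 to 201 FPKM in the others. Neither overlapped. HSPB6, a small heat shock protein also found in smooth muscle, went the other way, with 14.4, 39.1 and 19.5 FPKM at D100, 6.60, 6.999 and 8.12 FPKM at D120 and 39.0, 13.9 and 56.0 FPKM at D140. Its D120 libraries were below all others and close together (-1.74 ± 0.35, adjusted p = 5.1e-04).

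D120 replicate 2 had the highest level of each gene named so far that rose. Leaving it out ended the call of 5 heat shock genes, with CRYAB at 1.2 (adjusted p = 0.0508), HSPB1 at 1.11 (0.0619), DNAJB1 at 0.95 (0.0782), DNAJB4 at 0.84 (0.148) and HSP70.2 at 1.43 (0.126). HSPA6, HSPH1, DNAJA1, BAG3 and HSPB8 kept theirs under every single omission.

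**Figure D2:**
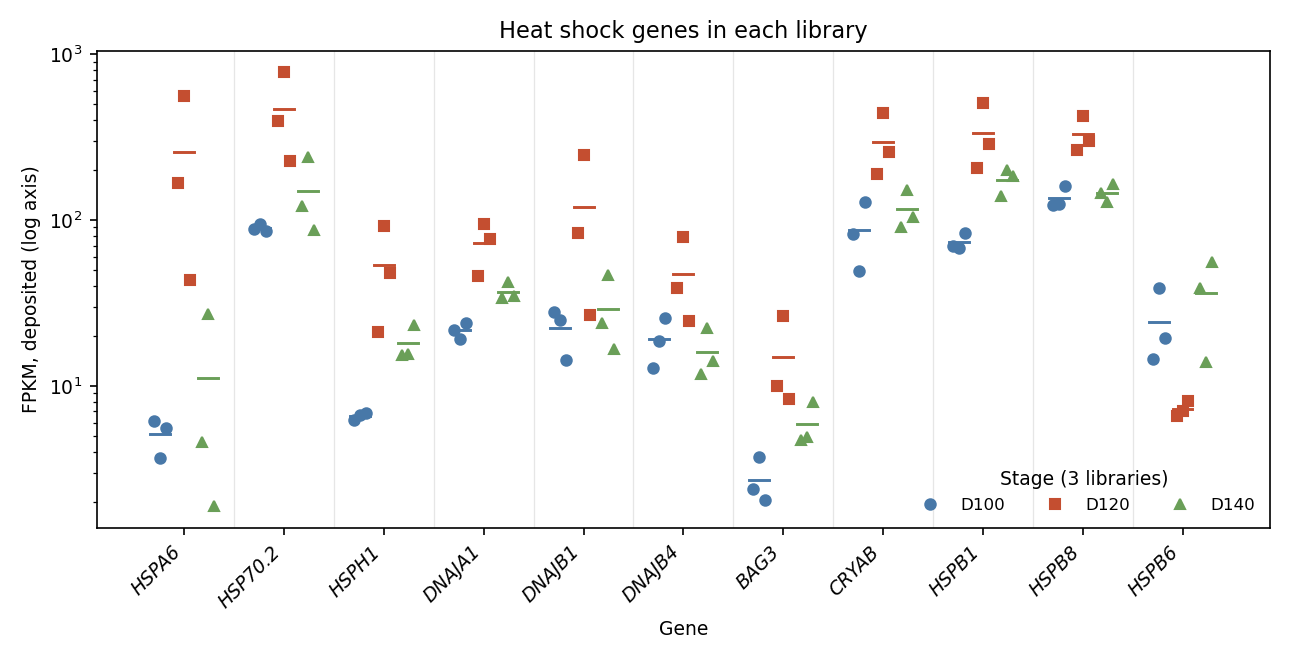
FPKM on a log axis of HSPA6 and 10 genes of the heat shock list in the 3 libraries of D100, D120 and D140, with a bar at each stage mean. The D120 squares lie above the other stages for HSPA6 (43.1 to 555 FPKM) and HSPB8 (265 to 424 FPKM), overlap them for DNAJB1, and lie below them for HSPB6 (6.60 to 8.12 FPKM).

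Promoters of the heat shock genes were read from RefSeq, assembly Sscrofa11.1, by gene ID, as 250 bases before to 50 after the annotated gene start. Those starts were not measured here, and the build behind the FPKM is not given in the sources used here. A heat shock element of GAA, TTC and GAA, each separated by any 2 bases and searched on either strand, was in 1 of the 10 promoters of genes that rose, HSPA6 included, in 4 of the 16 other promoters of the list and in 0.378% of 19551 promoters. The shorter form GAANNTTC, which the longer one contains and which was searched after the longer one, was in 4 of the 10, in 4 of the 16 and in 6.34% of all. HSPA6 and DNAJA1 are shown because they rose most and held the longer element, respectively, with matches in capitals.
HSPA6 (chr4:88973060-88973359, minus strand): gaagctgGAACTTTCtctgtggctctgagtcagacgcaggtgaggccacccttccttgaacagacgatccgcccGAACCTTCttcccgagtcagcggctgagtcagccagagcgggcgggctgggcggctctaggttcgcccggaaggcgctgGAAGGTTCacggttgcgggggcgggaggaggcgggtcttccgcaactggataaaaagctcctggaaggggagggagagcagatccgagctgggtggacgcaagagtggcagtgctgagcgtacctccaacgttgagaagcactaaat
DNAJA1 (chr10:33445507-33445806, minus strand): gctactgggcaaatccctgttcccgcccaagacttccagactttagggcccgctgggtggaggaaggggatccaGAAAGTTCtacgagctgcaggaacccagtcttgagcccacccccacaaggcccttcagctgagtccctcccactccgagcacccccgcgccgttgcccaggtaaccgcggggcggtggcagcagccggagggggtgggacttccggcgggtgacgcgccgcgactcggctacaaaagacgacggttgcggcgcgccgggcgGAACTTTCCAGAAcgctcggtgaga
HSPA6 held 3 copies of the shorter form, all before the gene start. DNAJA1 held 2, of which 1 lay before the gene start and 1 within the longer element after it.

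Some genes of lists for mechanical load and acute stress rose. Of 19 genes of the calcineurin and exercise response list, 4 rose and none fell, and of 26 immediate early genes, the transcription factors and regulators induced within minutes of a stimulus, 2 rose and none fell, beside 0.295% of all genes higher and 0.387% lower. The list medians were 0.35 and 0.32 in the deposited values, beside -0.12 for all genes, and 0.59 and 0.54 with median-ratio scaling, beside 0. ATF3, a stress-induced transcription factor on both lists, had 13.9, 3.04 and 3.06 FPKM at D100, 28.0, 247 and 79.8 FPKM at D120 and 6.57, 6.75 and 21.5 FPKM at D140. No library overlapped, and replicate 2 of D120 was far above the other D120 libraries (3.33 ± 0.68, adjusted p = 7.4e-04). ANKRD1, a titin-bound ankyrin repeat protein induced by stretch, had 117, 572 and 197 FPKM at D120 and 9.49 to 81.9 FPKM in the others, without overlap (2.57 ± 0.66, adjusted p = 0.0064). High means of both genes were not limited to D120. The ATF3 mean was 118 FPKM at D120, 97.4 FPKM at D160 and 90.4 FPKM at D80. The ANKRD1 mean was 295 FPKM at D120, 327 FPKM at D160 and 611 FPKM at D0.

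XIRP1, an actin-binding protein of the muscle junctions, rose by 1.99 ± 0.52 (adjusted p = 0.0070), and D120 replicate 1 at 20.7 FPKM was inside the range of D140. BTG2, an antiproliferative immediate early gene, rose by 1.97 ± 0.49 (adjusted p = 0.0050), and D120 replicate 3 and D100 replicate 1 overlapped at 71.7 and 120.03 FPKM. Its mean was 202 FPKM at D120, 232 FPKM at D160 and 184 FPKM at D80. MSS51, a mitochondrial protein of fast muscle, rose by 1.48 ± 0.45 (adjusted p = 0.0187), and D140 replicate 2 at 57.8 FPKM was above 2 of the D120 libraries. FOS did not follow: it had 276, 26.8 and 18.5 FPKM at D100, 188, 145 and 9.81 FPKM at D120 and 25.2 to 38.9 FPKM at D140 (0.68 ± 0.73, adjusted p = 0.556). Without D120 replicate 2, ANKRD1 was at 1.93 (adjusted p = 0.12), XIRP1 at 1.43 (0.141), BTG2 at 1.41 (0.125) and MSS51 at 1.5 (0.0782), and ATF3 kept its call. MSS51 was also not called without D100 replicate 1 (1.19, adjusted p = 0.0629), D120 replicate 3 (1.05, 0.126) or D140 replicate 1 (1.23, 0.0732).

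MYF6, a myogenic factor of mature fibres, was the member of the 15 myogenic regulators that rose, beside 0.295% of all genes. It had 31.5, 19.0 and 27.4 FPKM at D100, 58.6, 112 and 68.1 FPKM at D120 and 24.7, 30.2 and 54.7 FPKM at D140, without overlap and with its highest mean of the 27 stages at D120 (1.34 ± 0.32, adjusted p = 0.0030). Leaving out D120 replicate 2 took it to 1.07 (adjusted p = 0.0701).

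The circadian clock is a loop in which ARNTL (BMAL1) and CLOCK activate genes through the E-box CACGTG, among them the PER and CRY repressors and the output factors DBP and TEF. NFIL3 represses the D-box sites that DBP and TEF activate, and NR1D1 and NR1D2 repress ARNTL. Skeletal muscle has its own clock, and the levels of these genes follow the hour of the day. At D120 ARNTL and NFIL3 rose and DBP and TEF fell. Of 19 clock genes tested, 2 rose and 2 fell, beside 0.295% and 0.387% of all genes. The counts were the same with median-ratio scaling, beside 0.626% and 0.232%, and without D120 replicate 3 and D140 replicate 2, beside 0.394% and 1.47%. By adjusted p alone 3 were higher and 8 lower, beside 2.41% and 12.1% of all genes, and with median-ratio scaling 4 were higher and 7 lower, beside 10.1% and 6.46%.

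ARNTL had 1.21, 0.995 and 0.914 FPKM at D100, 5.98, 4.30 and 4.41 FPKM at D120 and 1.49, 1.19 and 1.02 FPKM at D140. Levels at D120 were far above the others and close to each other (1.46 ± 0.13, adjusted p = 1.1e-12). NFIL3 had 1.64, 0.692 and 0.836 FPKM at D100, 8.31, 5.87 and 14.7 FPKM at D120 and 2.16, 1.04 and 3.71 FPKM at D140. Again no library overlapped, and here D120 replicate 3 was the highest (2.0 ± 0.23, adjusted p = 6.1e-09).

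DBP had 5.24, 4.43 and 4.47 FPKM at D100, 0.699, 0.888 and 0.948 FPKM at D120 and 3.26, 5.45 and 2.05 FPKM at D140. All D120 libraries were below all others (-1.44 ± 0.19, adjusted p = 2.6e-07). TEF had 10.7, 11.7 and 9.66 FPKM at D100, 2.51, 3.75 and 1.88 FPKM at D120 and 8.96, 9.45 and 5.81 FPKM at D140, again below without overlap (-1.49 ± 0.16, adjusted p = 8.9e-10). These 4 genes were called whichever single library was left out, and ARNTL, DBP and TEF also in the fit of the 9 libraries alone.

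PER3 was lower at D120 without reaching the fold threshold, with 0.564, 0.511 and 0.438 FPKM at D120 and 1.38 to 2.46 FPKM in the others (-0.89 ± 0.12, adjusted p = 6.3e-07). NR1D2 had 24.7, 27.3 and 17.8 FPKM at D120 and 29.0 to 53.2 FPKM in the others (-0.86 ± 0.15, adjusted p = 5.5e-05). PER2 was at -0.62 ± 0.14 (adjusted p = 0.0026) and CLOCK at 0.34 ± 0.12 (adjusted p = 0.0453). PER1, CRY1, CRY2 and NR1D1 had adjusted p above 0.05. NR1D1 was at -0.16 and CRY1 at 0.11.

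Over the 12 postnatal stages the ARNTL mean at D120, 4.90 ± 0.937 FPKM (SD, n = 3), was exceeded by D0 with 6.52 ± 0.832 FPKM and close to D20 with 4.67 ± 0.811 FPKM. DBP at D120, 0.845 ± 0.130 FPKM, was near D0 with 0.724 ± 0.595 FPKM. TEF had its lowest mean of the 27 stages at D120, 2.71 ± 0.954 FPKM, with D0 next among the postnatal stages at 3.05 ± 0.726 FPKM. The levels of D120 were within the range of the earliest postnatal stages for ARNTL and DBP.

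**Figure D3:**
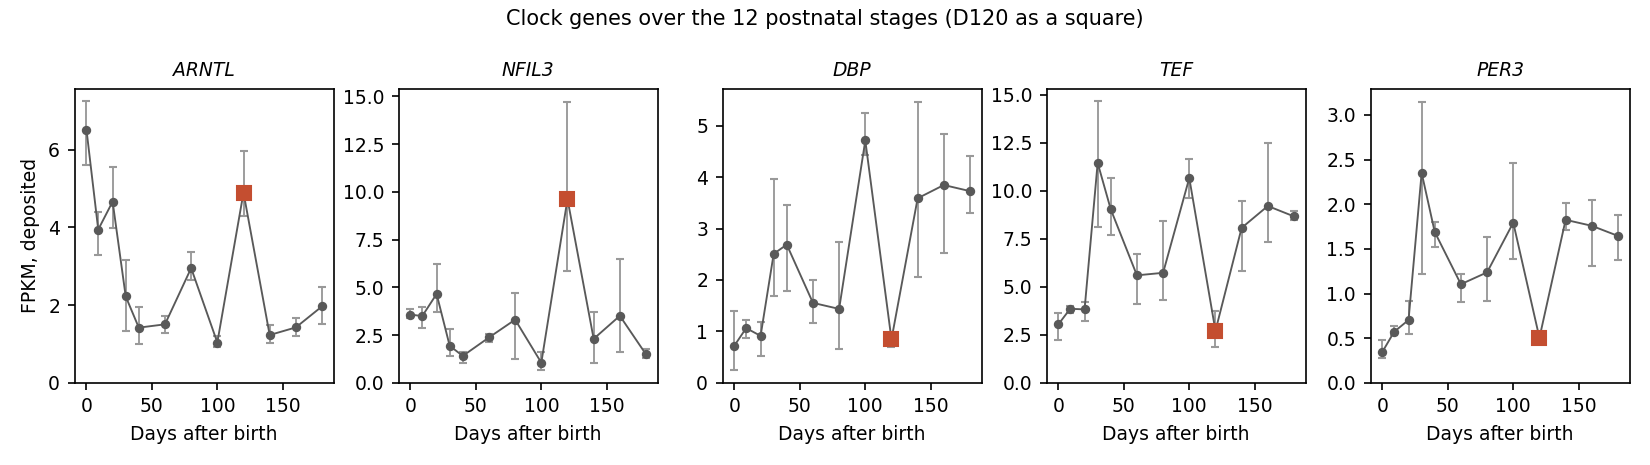
FPKM of ARNTL, NFIL3, DBP, TEF and PER3 at the 12 postnatal stages against days after birth; points are means of 3 libraries, bars run from the lowest to the highest library, and D120 is the square. ARNTL (4.90 FPKM) and NFIL3 stand above their neighbours at D120, and DBP (0.845 FPKM), TEF (2.71 FPKM) and PER3 below.

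The E-box CACGTG was in the RefSeq promoters of 4 of the 19 clock genes and in 7.92% of all promoters, and the D-box TTATGTAA was in 1 of the 19 and in 0.767% of all. PER3 is shown because it was lower at D120 and holds both, with matches to either motif in capitals.
PER3 (chr6:68487384-68487683, plus strand): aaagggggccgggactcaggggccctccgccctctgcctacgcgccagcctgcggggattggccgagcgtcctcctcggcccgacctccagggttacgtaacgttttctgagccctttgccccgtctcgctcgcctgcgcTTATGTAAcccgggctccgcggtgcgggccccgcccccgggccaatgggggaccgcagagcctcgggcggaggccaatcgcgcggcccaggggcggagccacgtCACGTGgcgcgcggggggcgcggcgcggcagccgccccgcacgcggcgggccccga
PER3 held 1 match to CACGTG and 1 to TTATGTAA, both before the gene start. Only these exact forms were searched, so variant D-box sites such as TTACGTAA were neither counted nor marked.

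SLA-1, SLA-2, TAP2 and ERAP1 were called lower at D120 and SLA-3 was not. No list of class I genes was compared, and SLA-2, SLA-3 and TAP2 were picked after their values were seen. SLA-5, B2M and TAPBP were picked in the same way, and their levels are not given. The genes shown therefore do not stand for class I presentation as a whole. TAP1, PSMB8 and PSMB9, which are on the interferon response list below, were not called. Class I molecules, called SLA in the pig, carry peptides to the cell surface. TAP2 is part of the pump that brings the peptides into the endoplasmic reticulum, and ERAP1 trims them there. SLA-1 had 257, 186 and 185 FPKM at D100, 34.3, 38.3 and 26.2 FPKM at D120 and 139, 67.1 and 89.2 FPKM at D140. The D120 libraries were below all others and D140 lay below D100 (-2.07 ± 0.36, adjusted p = 6.7e-05), and the gene was called in the 9-library fit too. SLA-2 fell by 1.60 on the log2 scale (SE 0.31, adjusted p = 4.0e-04), with 13.7, 18.3 and 40.1 FPKM at D120 and 39.0 to 104.8 FPKM in the others, so replicate 3 overlapped D140 replicate 2.

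SLA-3 did not move with them, at 24.3, 23.6 and 32.0 FPKM at D120 and 12.3 to 35.9 FPKM in the others (0.14 ± 0.42, adjusted p = 0.862). The class I genes are near-identical and vary between animals, so reads may have been split between them. TAP2 had 9.62, 7.93 and 9.76 FPKM at D100, 2.15, 2.65 and 4.04 FPKM at D120 and 10.04, 5.41 and 9.35 FPKM at D140, without overlap (-1.30 ± 0.25, adjusted p = 3.2e-04). ERAP1 was listed at 0 in D120 replicate 3 and at 4.72 and 5.09 FPKM in the other D120 libraries, against 5.33 to 9.96 FPKM elsewhere. Its call (-1.31 ± 0.30, adjusted p = 0.0026) rests on that 0: without replicate 3 it was at -0.45 (adjusted p = 0.224).

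Of 29 interferon response genes 1 fell, OAS2, a sensor of double-stranded RNA, beside 0.387% of all genes, and none rose. All 29 had a negative log2 fold change, beside 74.4% of all genes, with a median of -0.72 (-0.54 with median-ratio scaling), beside -0.12 for all genes. OAS2 had 16.5, 7.80 and 6.24 FPKM at D100, 1.07, 2.86 and 1.11 FPKM at D120 and 7.44, 3.17 and 5.26 FPKM at D140, without overlap (-1.63 ± 0.46, adjusted p = 0.0130). It was not called without D120 replicate 1 (-1.47, adjusted p = 0.0836). The list stood mainly below D100: its median was -0.97 against D100 and -0.21 against D140, and its summed FPKM was 377 to 974 at D100, 179.5 to 279 at D120 and 156 to 308 at D140. Complement C3, the central complement protein, fell by 1.33 on the log2 scale (SE 0.40, adjusted p = 0.0187), with 3.44, 4.74 and 8.21 FPKM at D120 and 9.23 to 18.2 FPKM in the others. C3 was not called without D120 replicate 1 (-1.09, adjusted p = 0.143) or replicate 2 (-1.28, adjusted p = 0.0950).

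Markers of other cells of muscle were lower in some libraries beside these genes, and their part in the results was not tested. In bulk RNA, fewer cells of a type and less RNA per cell cannot be told apart. Of 22 leukocyte markers tested none was called, beside 0.295% of all genes higher and 0.387% lower. Of these markers 19 were negative, beside 74.4% of all genes, and the median was -0.29, beside -0.12. The summed FPKM of the list was 402 to 650.1 at D100, 167 to 487 at D120 and 224 to 405 at D140. Of the 27 leukocyte markers, 5 were below 1 FPKM and none was listed at 0 in all 9 libraries. Without D120 replicate 3 and D140 replicate 2, picked after the data were seen, 6 of the 22 were called lower, beside 1.47% of all genes.

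Vessel and matrix genes were mostly on the lower side at D120. All 17 endothelial markers were negative, beside 74.4% of all genes, 1 fell, beside 0.387%, and 10 were lower by adjusted p alone, beside 12.1% of all genes. In 5 all D120 libraries lay below all others, beside 8.19% of all genes. The median was -0.58, and -0.39 with median-ratio scaling. Their summed FPKM was 139.6 to 250 at D100, 75.1 to 109 at D120 and 98.3 to 158 at D140, so D120 was below D100 and overlapped D140. VWF, the von Willebrand factor of endothelium, had 6.16, 19.9 and 5.92 FPKM at D100, 3.57, 4.94 and 5.11 FPKM at D120 and 17.6, 9.34 and 20 FPKM at D140. Every D120 library was below all others (-1.21 ± 0.29, adjusted p = 0.0039), and without D100 replicate 2 the value was -0.95 (adjusted p = 0.0213), under the fold threshold. KDR, the main VEGF receptor, stayed under it, with 6.41, 5.09 and 6.38 FPKM at D120 and 6.79 to 19.2 FPKM in the others (-0.76 ± 0.16, adjusted p = 0.0011).

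NOTCH3, a receptor of pericytes and vascular smooth muscle, had 4.90, 12.2 and 6.34 FPKM at D100, 2.81, 2.43 and 2.85 FPKM at D120 and 12.9, 5.58 and 11.9 FPKM at D140. It was lower in every D120 library (-1.34 ± 0.22, adjusted p = 4.0e-05) and the 1 gene of 14 smooth muscle and pericyte markers that fell, beside 0.387% of all genes. The summed level of that list was 1138 to 1247 FPKM at D120. This lay within the 971 to 1334 FPKM of D100 and below the 1291 to 1598 FPKM of D140. Of 15 fibroblast markers 2 fell, COL1A1 and DPT, beside 0.387% of all genes. The list summed to 2975 to 3498 FPKM at D100, 1458 to 2045 FPKM at D120 and 1362 to 2786 FPKM at D140. Among adipocyte, erythroid, satellite cell, tendon, nerve, cartilage, liver, epidermis and cardiac markers limma called none. The shares of all genes were 0.295% higher and 0.387% lower. Single libraries stood out in some of these lists. Cartilage and bone markers summed to 213 FPKM in D120 replicate 3, beside 2.28 and 9.34 FPKM in replicates 1 and 2. They reached 82.4 FPKM in D100 replicate 3, and 15 of the 16 were below 1 FPKM in all 9 libraries. Liver markers reached 128 FPKM in D100 replicate 2, and erythroid markers 640.5 FPKM in D140 replicate 3.

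Of 38 collagen and matrix genes 2 fell, beside 0.387% of all genes, and none rose. The log2 fold change was negative in 35, beside 74.4% of all genes, and the median was -0.52, beside -0.12. With median-ratio scaling none was called and the median was -0.31, beside 0. Without D120 replicate 3 and D140 replicate 2, picked after the data were seen, 9 were called lower and 1 higher. The shares of all genes were 1.47% and 0.394%. Their summed FPKM was 5378 to 6608 at D100, 2469 to 3475 at D120 and 2550.0 to 4888 at D140. COL4A2, a chain of the basement membrane collagen, had 37.0, 87.0 and 36.4 FPKM at D100, 17.5, 20.8 and 27.5 FPKM at D120 and 62.1, 32.7 and 68.7 FPKM at D140, without overlap (-1.19 ± 0.24, adjusted p = 4.9e-04). It was at -0.97 with median-ratio scaling and at -0.98 (adjusted p = 0.0031) without D100 replicate 2, both under the fold threshold.

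COL1A1, a chain of the main fibrillar collagen, had 310.2, 669 and 348 FPKM at D100, 112, 124 and 207 FPKM at D120 and 381, 166 and 411 FPKM at D140. D120 replicate 3 and D140 replicate 2 overlapped (-1.30 ± 0.42, adjusted p = 0.0306), and the call was lost on leaving out any of 5 single libraries, with adjusted p from 0.0695 to 0.16. DPT, a matrix protein of fibroblasts, had 30.1, 28.5 and 29.9 FPKM at D100, 5.46, 9.19 and 11.3 FPKM at D120 and 26.5, 11.5 and 28.0 FPKM at D140. It was lower in all D120 libraries than in any other, with D140 replicate 2 almost at their level (-1.46 ± 0.29, adjusted p = 5.5e-04), and the call held on leaving out any single library.

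**Figure D4:**
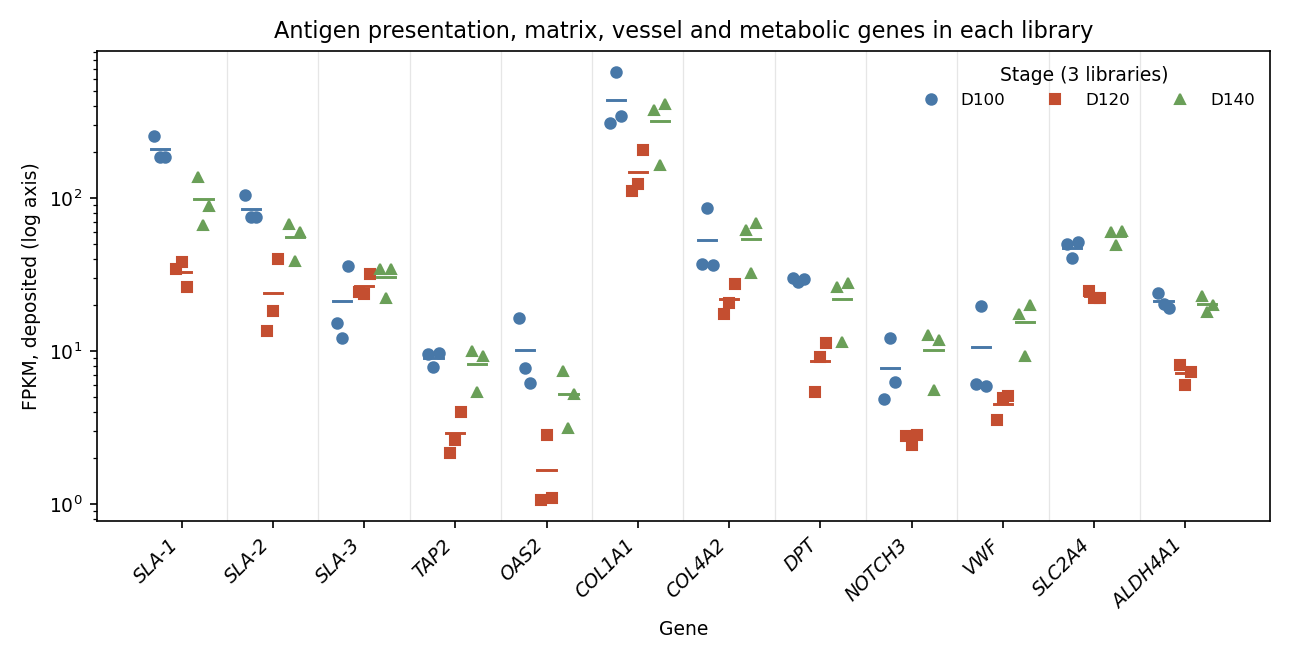
FPKM on a log axis of 12 genes of antigen presentation, matrix, vessels and metabolism in the 3 libraries of D100, D120 and D140, with a bar at each stage mean. The D120 squares lie below both neighbours for SLA-1 (26.2 to 38.3 FPKM) and SLC2A4 (22.2 to 24.6 FPKM), overlap D140 for SLA-2 and COL1A1, and lie within the others for SLA-3.

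Muscle takes up glucose after feeding or exercise through the transporter SLC2A4 (GLUT4), burns it by glycolysis and oxidises fatty acids in mitochondria. Of 31 glycolysis and glycogen genes 1 fell, SLC2A4, beside 0.387% of all genes, and none rose. SLC2A4 had 50.6, 40.6 and 51.9 FPKM at D100, 24.6, 22.2 and 22.3 FPKM at D120 and 59.98, 49.7 and 61.0 FPKM at D140. The D120 libraries were close together and far below the rest (-1.14 ± 0.17, adjusted p = 3.0e-06), with -0.92 under median-ratio scaling, which is below the fold threshold. The gene kept its call on leaving out any single library and in the 9-library fit. Its D120 mean, 23.1 ± 1.36 FPKM (SD, n = 3), was the lowest of the 12 postnatal stages, as it was for 23.0% of all genes.

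Of 44 genes of oxidative phosphorylation and the TCA cycle none was called by limma, beside 0.295% of all genes higher and 0.387% lower. Of these 41 were negative, beside 74.4% of all genes. By adjusted p alone 15 were lower, beside 12.1% of all genes, and 2 with median-ratio scaling, beside 6.46%. The median was -0.32, or -0.09 with median-ratio scaling, beside -0.12 and 0. The list median was -0.54 against D100 and -0.07 against D140. COX8H, a muscle form of a cytochrome oxidase subunit that is not on the list, had 3108, 1868 and 3105 FPKM at D100, 1036, 1186 and 1065 FPKM at D120 and 1789, 2204 and 2046 FPKM at D140. All D120 libraries were below the others (-1.07 ± 0.26, adjusted p = 0.0037; -0.83 with median-ratio scaling).

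Of 28 fatty acid oxidation genes 2 fell, FABP3 and ACOT1, beside 0.387% of all genes. The list median was -0.35, beside -0.12 for all genes, and neither was called with median-ratio scaling. FABP3, the fatty acid carrier of oxidative muscle, was at -1.02 ± 0.28 (adjusted p = 0.0106). It had 63.4, 76.6 and 143 FPKM at D120 and 121 to 303 FPKM in the others, and lost its call without any of 5 single libraries (-0.78 to -0.99). ACOT1, a cytosolic acyl-CoA thioesterase, had 4.89, 3.91 and 5.90 FPKM at D120 and 6.24 to 22.0 FPKM in the others (-1.05 ± 0.22, adjusted p = 9.1e-04). It was under the fold threshold without D100 replicate 3 (-0.89), D120 replicate 2 (-0.92) or D140 replicate 2 (-0.85).

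FASN, the fatty acid synthase, was the 1 called gene of 35 in lipid synthesis, beside 0.387% of all genes called lower, and its call came from D140. It had 16.5, 17.4 and 20.3 FPKM at D100, 13.1, 30.9 and 26.0 FPKM at D120 and 190.2, 63.2 and 262 FPKM at D140. D120 and D100 overlapped and D140 stood above both, with a log2 fold change of 0.27 against D100 and -2.68 against D140. In the joint comparison it was at -1.21 ± 0.39 (adjusted p = 0.0284), -0.99 with median-ratio scaling, and was not called without D120 replicate 1, D140 replicate 1 or D140 replicate 3.

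ALDH4A1, a mitochondrial enzyme of proline breakdown, had 24.2, 20.5 and 19.1 FPKM at D100, 8.13, 6.07 and 7.30 FPKM at D120 and 23.1, 18.1 and 20.2 FPKM at D140. The groups were far apart (-1.42 ± 0.16, adjusted p = 4.1e-09), and the call held in the 9-library fit and whichever library was left out. PHGDH, the entry enzyme of serine synthesis, and ATF5, a stress transcription factor, were the 2 genes of 27 in the ATF4 and unfolded protein response list that fell, beside 0.387% of all genes, and none rose. PHGDH had 3.62, 2.08 and 1.96 FPKM at D120 and 3.84 to 12.7 FPKM in the others (-1.29 ± 0.31, adjusted p = 0.0039). ATF5 overlapped (-1.02 ± 0.27, adjusted p = 0.0073; -0.90 with median-ratio scaling) and lost its call without any of 4 single libraries (-0.85 to -0.96).

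AQP4, the water channel of fast fibres, had 16.7, 6.41 and 8.67 FPKM at D100, 0.960, 0.207 and 3.33 FPKM at D120 and 3.61, 3.36 and 4.74 FPKM at D140. The D120 libraries were below all others, replicate 3 only just (-1.74 ± 0.32, adjusted p = 1.5e-04).

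Contractile genes of the fibre types were not called in the deposited values. Of 16 fast-fibre genes none was called, with a median of 0.14 (0.38 with median-ratio scaling). Of 17 slow-fibre genes none was called, with a median of -0.42 (-0.19). All genes had medians of -0.12 and 0, with 0.295% called higher and 0.387% lower. In lists this short, no call is near those shares. MYH4, the fastest myosin heavy chain, had 5864, 3937 and 5407 FPKM at D120 and 3023 to 4643 FPKM in the others (0.38 ± 0.40, adjusted p = 0.553), and the slow MYH7 was at -0.46 ± 0.50 (adjusted p = 0.561). Near-identical myosin genes may share reads. SLN, a small inhibitor of the calcium pump, had 3797, 3533 and 3219 FPKM at D120 and 1194 to 2904 FPKM in the others. It was above all others at 0.87 ± 0.24 (adjusted p = 0.0108), under the fold threshold, and was called with median-ratio scaling at 1.10.

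Of 60 ribosomal protein genes none was called, beside 0.295% of all genes higher and 0.387% lower. Of these 54 were positive and 6 negative, beside 74.4% of all genes negative. The median was 0.21, or 0.44 with median-ratio scaling, beside -0.12 and 0 for all genes. By adjusted p alone 11 were higher, beside 2.41% of all genes, and 31 with median-ratio scaling, beside 10.1%. Their summed FPKM overlapped, at 30050 to 48810 at D100, 43040 to 48510 at D120 and 30480 to 50470 at D140. Of 30 genes of IGF and myostatin signalling 1 rose, beside 0.295% of all genes, namely IGF2, the fetal growth factor. It had 5.89, 16.3 and 6.26 FPKM at D100, 22.5, 26.0 and 21.0 FPKM at D120 and 10.1, 7.35 and 10.6 FPKM at D140, without overlap (1.28 ± 0.28, adjusted p = 0.0015).

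**Figure D5:**
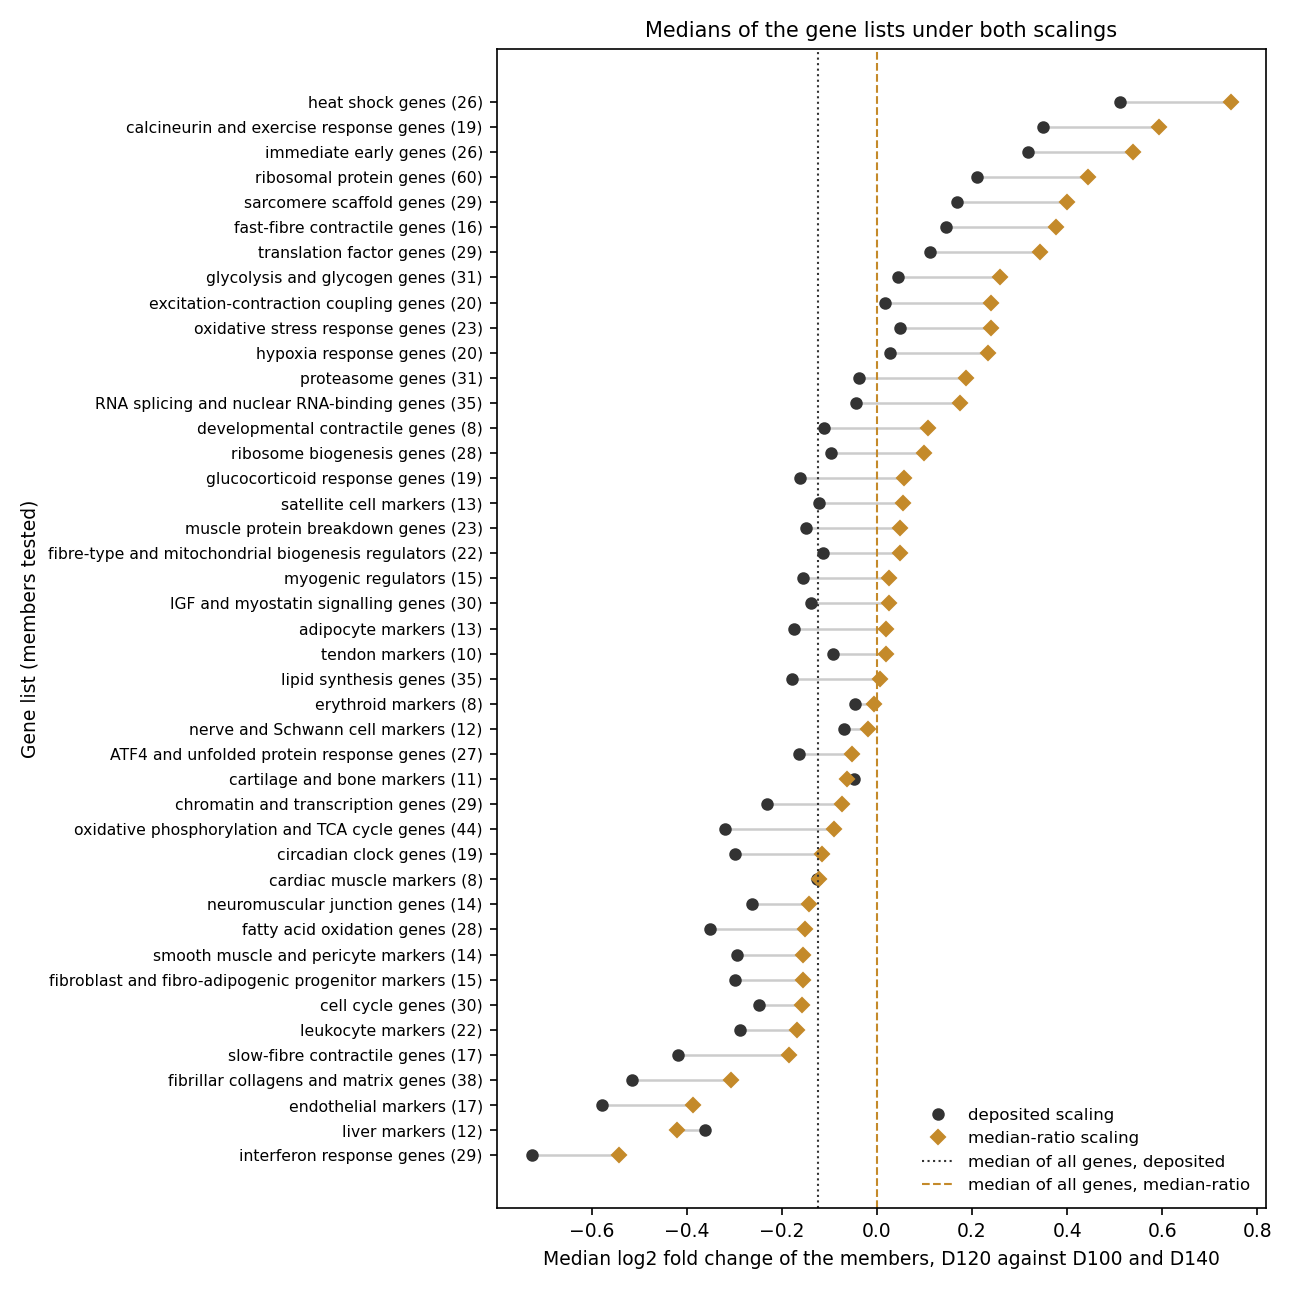
Median log2 fold change (D120 against D100 and D140) of each gene list with 8 or more members tested, in the deposited values (circles) and with median-ratio scaling (diamonds); vertical lines mark the median of all 14220 genes, -0.12 and 0. Heat shock genes stand highest (0.51 and 0.74), and interferon response genes lowest (-0.72 and -0.54).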

How the data were processed

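Per the labels' protocols, total RNA (TRIzol) lost its ribosomal RNA by depletion and went into paired-end libraries that keep the strand. The submitters' processing notes name Trimmomatic, HISAT2 2.0.4 and StringTie 1.3.1. The genome build is not given in the sources used here. The authors deposited FPKM per gene and library, normalised by them for length and library size, so a gene's value falls when others take more of the total. Depth was estimated from steps of whole fragments at low values (about 50% of low values within 2% of a step), too few to recover counts.

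Of 28325 entries, 264 repeats of a gene ID were dropped, leaving 28061 genes. Genes at 1 FPKM or more in at least 3 libraries were tested (14220; 13841 removed). limma 3.58.1 in R 4.3.3 fitted 27 stage means to all 81 libraries on log2(FPKM + 1), with variances moderated along a trend; tests were two-sided and p-values were adjusted (Benjamini-Hochberg) over the 14220 genes. Median ratios used 14396 genes above 0 in all 81 libraries. The fit was tested on simulated data.

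The members and gene lists were chosen with earlier results of these data known. Genes named were the 12 largest rises and 12 largest falls with a symbol, called under both scalings and without overlap; list members called under either scaling or among the 4 smallest p; and 17 fixed genes such as MYH4, CKM and FOS. Some items are not reported here. HSPA8, HSF1, SLA-2, SLA-3, TAP2, PER2, PER3, NR1D1, NR1D2, CLOCK, CRY1, CRY2, PER1, COX8H, CYP1A1, RXRG and the loci without a symbol were named after their values were seen. Alternatives varied scaling, pseudocount, filter, variance trend, libraries fitted, fold threshold, replicate block and omitted libraries.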

Additional observations from a re-analysis of the deposited data

How the results depend on the processing

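In the deposited values, 42 genes higher and 55 lower became 66 and 35 with quantile normalisation, 94 and 315 with a pseudocount of 0.1, 9 and 11 with only the 9 libraries fitted, 24 and 29 with only the 36 postnatal libraries, 137 and 456 at a fold change of 1.5, and 342 and 1717 by adjusted p alone. Median-ratio scaling gave 89 and 33, and these became 185 and 180 with the pseudocount of 0.1, 18 and 8 with the 9 libraries, 57 and 21 with the postnatal libraries, 409 and 240 at a fold change of 1.5, and 1438 and 919 by adjusted p alone; median ratios over genes of at least 1 FPKM in all 9 libraries gave 54 higher. Without D120 replicate 3 and D140 replicate 2, chosen after seeing the data, there were 209 lower, and 175 higher and 85 lower with median-ratio scaling. Leaving out 1 library gave 30 to 53 higher and 40 to 116 lower (116 without D120 replicate 3, 92 without D140 replicate 2), and 63 to 148 and 32 to 54 with median-ratio scaling. The 242 genes called against D100 became 893 with the pseudocount of 0.1, 78 with the 9 libraries and 172 to 475 on leaving out 1 library (475 without D120 replicate 3). The 108 against D140 became 375, 10 and 72 to 200 (200 without D140 replicate 2), and the 157 between D140 and D100 became 433, 7 and 115 to 260 (260 without D100 replicate 2). The causes were not tested.

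Of 54 named genes called, 46 kept their call with median-ratio scaling, 49 with quantile normalisation, 15 with the 9 libraries, 34 with the postnatal libraries, 38 without D120 replicate 2 and 49 to 52 without any other single library. MT1A (1.04) ranged from -0.141 without D120 replicate 3 to 1.623 without D120 replicate 1, and was -0.186 without D120 replicate 3 and D140 replicate 2 together. The replicate block gave 42 genes higher and 54 lower, and 90 and 33 with median-ratio scaling, and changed no call of the 54; the numbers do not pair the libraries, whose same-numbered deviations correlated between -0.39 and 0.178. With 3 libraries a stage and no counts, low genes are the least certain: FPKM gives no counting interval, and values listed at 0 may be failed estimates.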

Other observations

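RXRG, CYP1A1, TMEM140, MT4, GDNF and PLCD4, which are on none of the lists, were called at D120. RXRG, a retinoid X receptor of skeletal muscle, had 4.99, 6.86 and 9.71 FPKM at D100, 18.7, 17.3 and 17.3 FPKM at D120 and 4.63, 7.84 and 6.31 FPKM at D140. It was higher without overlap (log2 fold change 1.32 ± 0.26, limma adjusted p = 5.1e-04), and its D120 mean was the highest of the 27 stages. CYP1A1, a target of the aryl hydrocarbon receptor, had 4.02, 2.76 and 2.29 FPKM at D120, 0.700 to 1.21 FPKM at D100 and 0.0455 to 0.140 FPKM at D140 (1.42 ± 0.23, adjusted p = 2.3e-05), and D30 was higher still at 12.5 ± 14.6 FPKM (SD, n = 3). TMEM140, a transmembrane protein gene, had 16.4, 11.7 and 12.5 FPKM at D120 and 2.95 to 6.72 FPKM in the others (1.46 ± 0.21, adjusted p = 1.6e-06). MT4, a metallothionein, had 5.63, 4.96 and 5.79 FPKM at D120 and 0.772 to 1.87 FPKM in the others (1.57 ± 0.30, adjusted p = 3.4e-04). These 4 genes were called in the fit of the 9 libraries as well. GDNF, a neurotrophic factor, rose by 1.53 ± 0.30 (adjusted p = 3.9e-04) and not without D120 replicate 2 (0.97, adjusted p = 0.0563). A gene listed as PLCD4, a phospholipase C, was listed at 0 in 2 of the 3 D120 libraries and at 0.320 FPKM in the other, against 1.11 to 5.62 FPKM at D100 and D140 (-1.60 ± 0.38, adjusted p = 0.0032). MT1A, a further metallothionein and a member of the oxidative stress list, was called only through D120 replicate 3, which had 10.5 FPKM where the other D120 libraries were listed at 0.

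Loci without a symbol were called as well. XLOC_246832, a locus defined by the authors, had 9.97, 15.8 and 16.0 FPKM at D100, 0.0948, 0.0796 and 0.102 FPKM at D120 and 11.5, 8.04 and 18.1 FPKM at D140 (-3.65 ± 0.40, adjusted p = 2.3e-09). Its level was not steady over development: E95 had 0.0804 ± 0.0405 FPKM, D0 had 23.9 ± 10.1 FPKM and D180 had 0.527 ± 0.383 FPKM (SD, n = 3 each). LOC110261088 had 6.48, 12.6 and 10.7 FPKM at D120 and 0 to 0.317 FPKM in the other 6 libraries (3.28 ± 0.42, adjusted p = 1.8e-07), and D180 had 6.17 ± 5.81 FPKM. LOC110257281 had 4.22, 8.91 and 6.87 FPKM at D120 and 0.191 to 1.43 FPKM in the others (1.94 ± 0.17, adjusted p = 2.0e-12).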
